A study of Mus musculus with 81 samples.

Results

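The BXD strains are recombinant inbred mice that each carry a fixed mixture of the C57BL/6J and DBA/2J genomes. They fell into 2 groups by the array signal of Cyfip2 in heart RNA. The groups were chosen by 1 measured value, the strain's mean over its chow and its high fat array for probe set 17262065, the Cyfip2 probe set of the array, with the boundary at 11 units. Of 37 BXD strains with an array on each diet, 16 lay under the boundary and 21 at or above it, which gives 74 of the 81 arrays and 37 of the 42 strains of the study. The parents C57BL/6J and DBA/2J and the strains BXD60, BXD79 and BXD92a, which have a chow array only, were kept out of the groups and served as strains that the grouping had not used. All animals were males of 29 weeks, fasted overnight before tissue was taken, and all were kept on standard chow or on a high fat diet, whose composition was not given. An array holds the pooled heart RNA of about 5 animals of 1 strain on 1 diet, so the spread between animals is not visible and p-values measure the spread between strains.

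Cyfip2 encodes a subunit of the WAVE regulatory complex, which relays signals from the small GTPase Rac to the Arp2/3 complex and so starts branched actin filaments. Its product also binds FMRP, the RNA-binding protein of fragile X syndrome, and its paralog Cyfip1 links FMRP to the cap-binding factor eIF4E. Pttg1, the other gene that marks the groups, encodes securin, which holds separase inactive until sister chromatids part in mitosis. Both genes lie on mouse chromosome 11. In recombinant inbred strains a stretch of chromosome is inherited from one parent or the other, so neighbouring genes usually share their parental origin. Distant genes share it in some strains and not in others.

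The 250 bases before the annotated start of each of these genes are shown because their signals differ together between the groups. The sequences are from RefSeq (GRCm38.p6), that is from the C57BL/6J reference and not from the strains measured, read 5' to 3' on the minus strand, with CpG dinucleotides in capitals. Cyfip2 is at chr11:46312359-46312608 and Pttg1 at chr11:43425982-43426231.
Cyfip2: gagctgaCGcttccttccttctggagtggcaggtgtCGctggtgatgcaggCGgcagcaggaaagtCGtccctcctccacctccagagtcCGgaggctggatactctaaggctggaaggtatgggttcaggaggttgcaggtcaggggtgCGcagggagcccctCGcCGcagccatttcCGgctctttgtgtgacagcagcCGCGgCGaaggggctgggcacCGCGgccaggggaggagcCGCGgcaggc
Pttg1: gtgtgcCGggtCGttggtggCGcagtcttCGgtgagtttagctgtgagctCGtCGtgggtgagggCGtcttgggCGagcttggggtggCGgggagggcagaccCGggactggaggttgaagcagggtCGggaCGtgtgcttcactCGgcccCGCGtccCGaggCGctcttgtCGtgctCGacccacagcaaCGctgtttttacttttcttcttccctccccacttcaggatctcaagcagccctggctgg
The Cyfip2 stretch holds 16 CpG and 66.4% G or C, and the Pttg1 stretch 20 CpG and 63.6%, beside medians of 6.0 CpG and 52.4% over 32851 RefSeq promoters of the same length. Neither stretch holds a CCAAT box (CCAAT), a GC box (GGGCGG), an E-box (CACGTG) or a TATA box (TATAAA) on either strand. Of all these promoters 33.8% hold the first, 32.7% the second, 6.0% the third and 12.4% the fourth.

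Values are those deposited, on a log-like scale of unstated base on which all arrays share the mean (8) and the SD (2), and differences are given in these units. Cyfip2 stood at 9.93 ± 0.239 units (SD, n = 16 strains) in the low group and at 12.2 ± 0.184 (n = 21) in the high group. Strain means in the low group ran from 9.48 in BXD87 through a median of 9.87 to 10.2 in BXD56. In the high group they ran from 11.9 in BXD62 through a median of 12.2 to 12.6 in BXD71. No strain lay in the 1.62 units between BXD56, the last inside the low group, and BXD62, the first outside it. Since Cyfip2 chose the groups, these values are a description and carry no test. Whether DBA/2J sequence variants lie under the probes of Cyfip2, Pttg1 or other genes was not looked at, so the values are array signals.

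The grouping was the same on each diet alone. On chow, low strains ranged from 9.26 to 10.46 units and high strains from 11.9 to 12.7, and on high fat from 9.40 to 10.2 and from 11.7 to 12.5. All 37 of 37 strains kept their group with the boundary moved by 0.5 units either way, with chow arrays alone and with high fat arrays alone. The parents lay on opposite sides: DBA/2J had 9.97 units on chow and 9.90 on high fat, and C57BL/6J 12.4 on each. The chow-only strains BXD60, at 10.1, and BXD79, at 9.74, matched the low range, and BXD92a, at 12.3, matched the high range. Thus none of the 7 arrays that the grouping had not used lay between the groups.

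**Figure D1:**
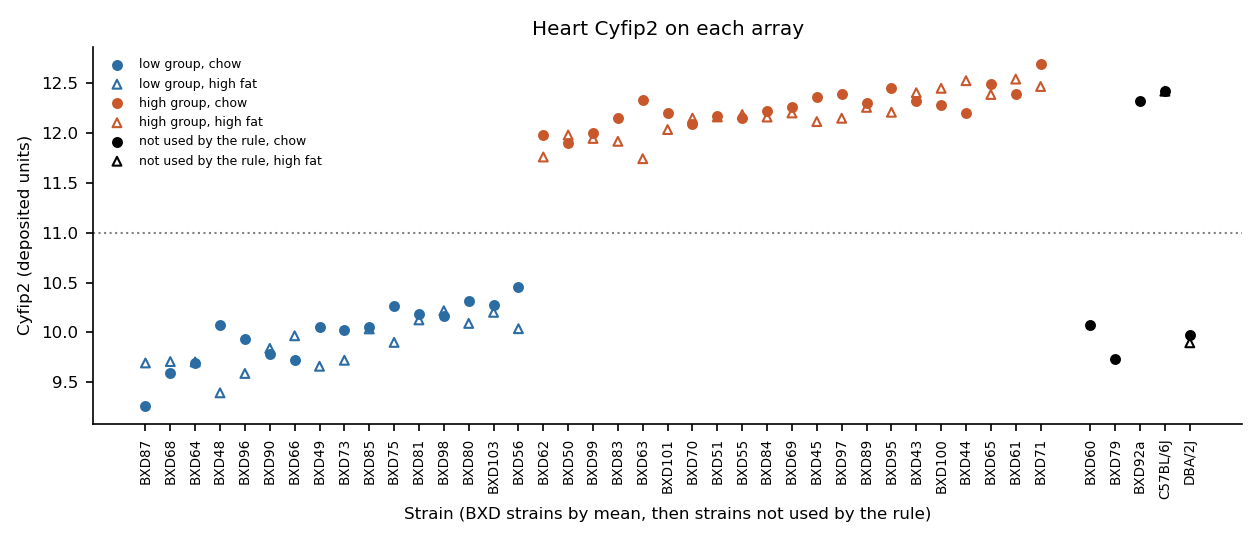
Cyfip2 on each array (y axis, deposited units) by strain (x axis), with chow as filled circles, high fat as open triangles, the low group in blue, the high group in orange and strains outside the grouping in black. No array of any strain lies near the dotted boundary at 11, and the strains outside the grouping fall into the same pair of bands.

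Diet moved Cyfip2 little in comparison. Within strains, high fat minus chow was -0.0964 ± 0.237 units (SD, n = 37), lower on high fat in 24 of 37 strains, with an adjusted p of 0.0411 in limma's paired fit, in which 44.0% of genes passed the same threshold. The shift was -0.123 ± 0.286 in the low group and -0.0758 ± 0.197 in the high group. The lowest shift was -0.684 units (BXD48), which is smaller than the gap between the groups.

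Among 22179 genes other than Cyfip2, limma on the strain means found 1 at an adjusted p under 0.05, and it was Pttg1. It was lower in the low group, so that 0.00451% of genes tested were called as lower and 0.0% as higher. Its difference, low minus high, was -1.82 units (SE 0.165, 95% interval -2.15 to -1.49, adjusted p = 2.28e-09). At an unadjusted p under 0.05 the count was 1003 genes, or 4.52% of those tested, and 525 of them were lower in the low group and 478 higher. Leaving out single strains gave 1 to 4 called genes, with 4 without BXD101, 3 without BXD71 and 2 without BXD70, BXD85 or BXD97, and Pttg1 was among them each time. No gene other than Cyfip2 had strain means that did not overlap between the groups (0.0% of those tested).

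Pttg1 averaged 7.99 ± 0.563 units (SD, n = 16) in the low group, from 7.54 in BXD103 through a median of 7.86 to 9.94 in BXD66. In the high group it averaged 9.81 ± 0.505 (n = 21), from 7.67 in BXD55 through a median of 9.90 to 10.2 in BXD43. Like Cyfip2, its strain means formed a pair of bands, with no strain in the 1.49 units from 8.17 to 9.66. The bands held the same strains as those of Cyfip2 with 2 exceptions. BXD66 was low for Cyfip2 (9.84) and high for Pttg1, with 10.015 on chow and 9.86 on high fat. BXD55 was high for Cyfip2 (12.2) and low for Pttg1, with 7.87 on chow and 7.46 on high fat. The mismatch was thus present on both arrays of each of these strains.

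Apart from these 2 strains, Pttg1 ran from 7.54 to 8.17 in 15 low strains (7.86 ± 0.222, SD) and from 9.66 to 10.2 in 20 high strains (9.91 ± 0.121), a difference of -2.06 units. The 2 strains were set aside because of their Pttg1 values, so these figures describe the bands and carry no test. Strains outside the groups followed the same pairing. Pttg1 was 7.49 on chow and 8.004 on high fat in DBA/2J, 10.1 and 9.59 in C57BL/6J, 7.96 in BXD60, 7.17 in BXD79 and 9.82 in BXD92a.

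**Figure D2:**
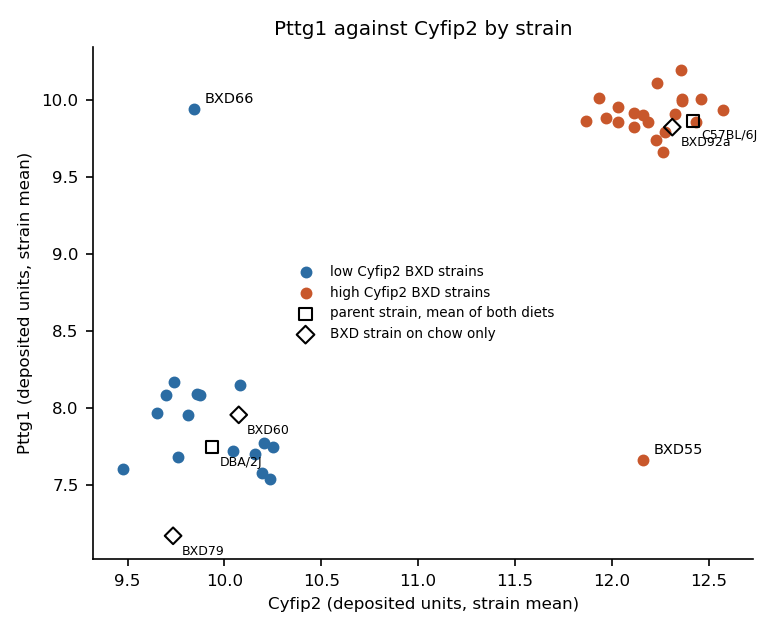
Strain means of Pttg1 (y axis) against Cyfip2 (x axis), both in deposited units, with low Cyfip2 strains in blue, high Cyfip2 strains in orange, parents as squares and chow-only strains as diamonds. Strains form a lower left and an upper right cluster, and only BXD66 and BXD55 sit in the remaining corners.

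The Pttg1 difference was present on each diet, at -1.91 units on chow arrays and -1.73 on high fat arrays. Its diet shift was 0.0371 ± 0.349 units in the low group and -0.144 ± 0.172 in the high group. The difference of these shifts, 0.182 (95% interval 0.00793 to 0.355), did not pass the test over all genes (limma adjusted p = 0.9997). No gene passed that test (0.0% of 22179), and 835 (3.76%) had an unadjusted p under 0.05. Rps19, a protein of the small ribosomal subunit, had the smallest adjusted p, 0.632, with a shift of 0.210 in the low group and -0.0583 in the high group. Flt3, a cytokine receptor of early blood cells (0.310 against -0.0580), and Cyp2d10, a cytochrome P450 (-0.305 against 0.211), were also among the 5 genes with the smallest p, each at 0.660, with Vmn1r169 and E130120K24Rik at the same value. The response to the diet was thus not shown to differ between low and high Cyfip2 strains for any gene.

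Named genes that stand next to Cyfip2 did not share its pattern. Pttg1 is 21 measured genes before Cyfip2 in the RefSeq order, and the 10 measured genes on each side, all nearer than Pttg1, had differences from -0.0990 (Med7, a subunit of the Mediator coactivator) to 0.0837 (Gm4926). Among these 20 genes the smallest adjusted p was 0.9999, 2 had an unadjusted p under 0.05, and the widest bounds of their 95% intervals were -0.194 and 0.220. They include Adam19, a membrane metalloprotease of heart valve development, Ebf1, a transcription factor of B cells and fat cells, Clint1, a clathrin adaptor, Lsm11, a subunit of the U7 snRNP that processes histone mRNAs, and Havcr2, which encodes the immune receptor TIM-3. Sgcd, the dystrophin-associated delta-sarcoglycan, lies 13 genes after Cyfip2 and had a difference of -0.0490 (95% interval -0.154 to 0.0555).

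Over a wider stretch, differences at the unadjusted threshold made up a larger share than elsewhere, mostly as lower values in the low group. Among the 100 measured genes on each side, Pttg1 was the only 1 of 200 called, and 25 (12.5%) had an unadjusted p under 0.05, of which 19 were lower in the low group. On the rest of chromosome 11 this share was 6.01% (87 of 1448 genes), and on other chromosomes 4.36% (888 of 20345). Such genes numbered 6 of the 50 just before Cyfip2 and 5 of the 50 just after it. Further out, successive stretches of 50 genes held 11, 12, 9 and 5 on the side after Cyfip2, and 3, 1, 3 and 0 on the side before it. The share was 16.8% (42 of 250) within the 250 genes after Cyfip2, and 5.02% (57 of 1136) among genes more than 250 places after it. With neighbouring genes inherited together, these counts are not of independent genes.

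**Figure D3:**
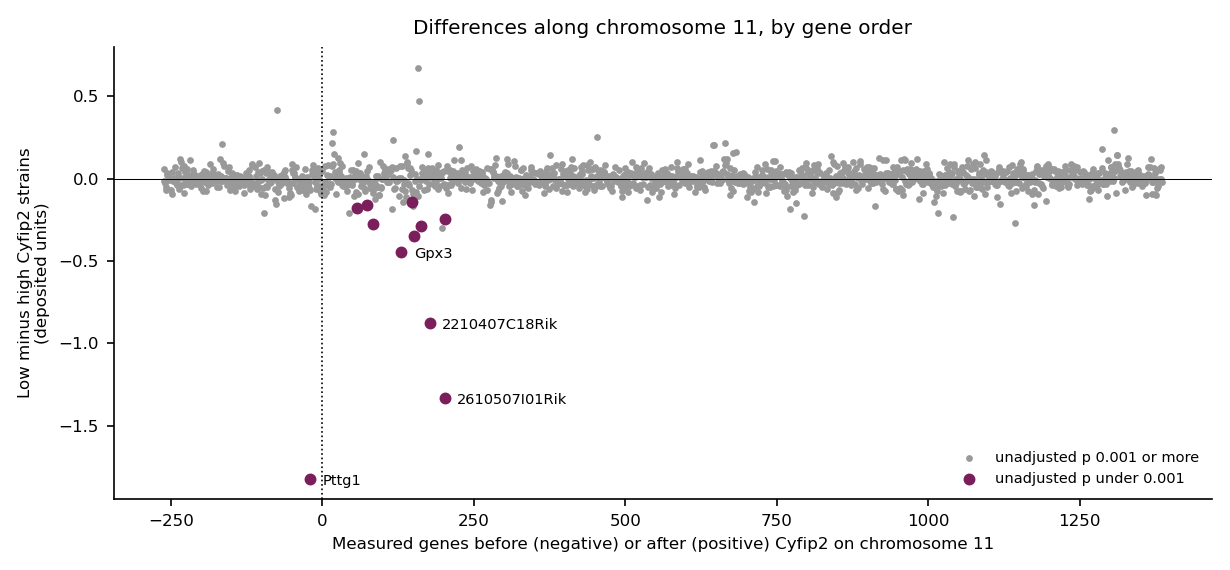
Difference of each measured chromosome 11 gene other than Cyfip2 between the low and high groups (y axis, deposited units) by its place in gene order from Cyfip2 (x axis), with genes at an unadjusted p under 0.001 in purple. These 11 genes are all lower in the low group and run from Pttg1, 21 genes before Cyfip2, to Mrpl55, 203 genes after it.

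At an unadjusted p under 0.001, which 21 genes (0.0947%) reached, 11 were on chromosome 11 and 10 elsewhere. All 11 on chromosome 11 were lower in the low group and also lower in DBA/2J than in C57BL/6J, a comparison of parents that the groups had not used. Neighbouring genes are inherited together, so these directions are not independent, and each parent has 1 array per diet. For Rufy1, Cdkn2aipnl, Sap30l and 2210407C18Rik the DBA/2J mean lay above the highest low strain, and for the others it did not. The chow-only strain BXD60, low for Cyfip2, exceeded the highest low strain for Rufy1 (9.78), Cdkn2aipnl (10.425), Sap30l (10.314), Zfp672 (9.163) and 2210407C18Rik (7.953). It lay within the low range for Pttg1, Gpx3, Mrpl55 and 2610507I01Rik. Of these genes, BXD79, also low, exceeded the highest low strain only for 2210407C18Rik (7.27). BXD92a, high for Cyfip2, was above all low strains for Cdkn2aipnl, Sap30l and 2210407C18Rik, but within the low range for Rufy1 (9.576) among others. Of the 10 elsewhere, 7 had the parents' difference in the same direction. Only Pttg1 passed the adjusted threshold, so the other 10 on chromosome 11 are given as values.

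Rufy1, which encodes a protein of early endosomes, came closest, 57 genes after Cyfip2. It was 9.63 ± 0.0765 units in the low group (9.49 to 9.75) and 9.81 ± 0.110 in the high group (9.55 to 9.97), a difference of -0.180 (limma adjusted p = 0.0561). The ranges overlapped. Cdkn2aipnl, 84 genes after, differed by -0.275 (SE 0.0563, adjusted p = 0.124). Zfp672, a zinc finger gene 163 genes after, differed by -0.288 (SE 0.0628, adjusted p = 0.242), and Sap30l, a subunit of Sin3 corepressor complexes, by -0.349 (SE 0.0812, adjusted p = 0.297). The remaining named genes are Phykpl, an enzyme of hydroxylysine breakdown (-0.160), Mfap3, a microfibril-associated protein (-0.141), and Mrpl55, a protein of the mitochondrial ribosome (-0.245).

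Gpx3, the secreted glutathione peroxidase, is 130 genes after Cyfip2. Its strain means ran from 10.3 through a median of 10.6 to 11.4 in the low group and from 10.47 through 11.2 to 11.6 in the high group. The difference was -0.446 units (SE 0.104, limma adjusted p = 0.297), with overlapping ranges and a parental difference of -0.682 (DBA/2J minus C57BL/6J). When the 74 arrays were fitted singly with strain as a random block, 10 genes passed (0.0451%), 9 of them on chromosome 11. They were Pttg1, Rufy1, Cdkn2aipnl, Gpx3, Sap30l, Zfp672, Mrpl55, 2210407C18Rik and 2610507I01Rik, with Adamts5 of chromosome 16, an aggrecan-cleaving protease, as the tenth (-0.308, adjusted p = 0.0165 there and 0.592 on strain means). That fit took 1 correlation between the arrays of a strain, 0.148, for all genes. It understates the error of genes whose 2 arrays agree more closely. For 2610507I01Rik the SD in the high group was 1.24 on chow, 1.32 on high fat and 1.27 over strain means.

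A pair of chromosome 11 genes further along had large but divided differences. The predicted gene 2210407C18Rik, 177 genes after Cyfip2, differed by -0.876 units (SE 0.199, limma adjusted p = 0.292), from 6.60 to 7.07 in the low group and from 6.76 to 9.76 in the high group. Transcript 2610507I01Rik, 202 genes after, differed by -1.33 (SE 0.330, adjusted p = 0.453), from 7.09 to 10.1 in the low group and from 7.29 to 10.3 in the high group. Nearly all low strains were low for both, and the high group was split. The same 9 high strains (BXD44, BXD51, BXD70, BXD71, BXD83, BXD84, BXD89, BXD99 and BXD101) lay below the gap in the values of each gene, and BXD96 was the 1 low strain above the gap of 2610507I01Rik. For 2210407C18Rik no low strain was above its gap. C57BL/6J was high for both (9.32 and 10.1) and DBA/2J low (7.24 and 7.16).

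**Figure D4:**
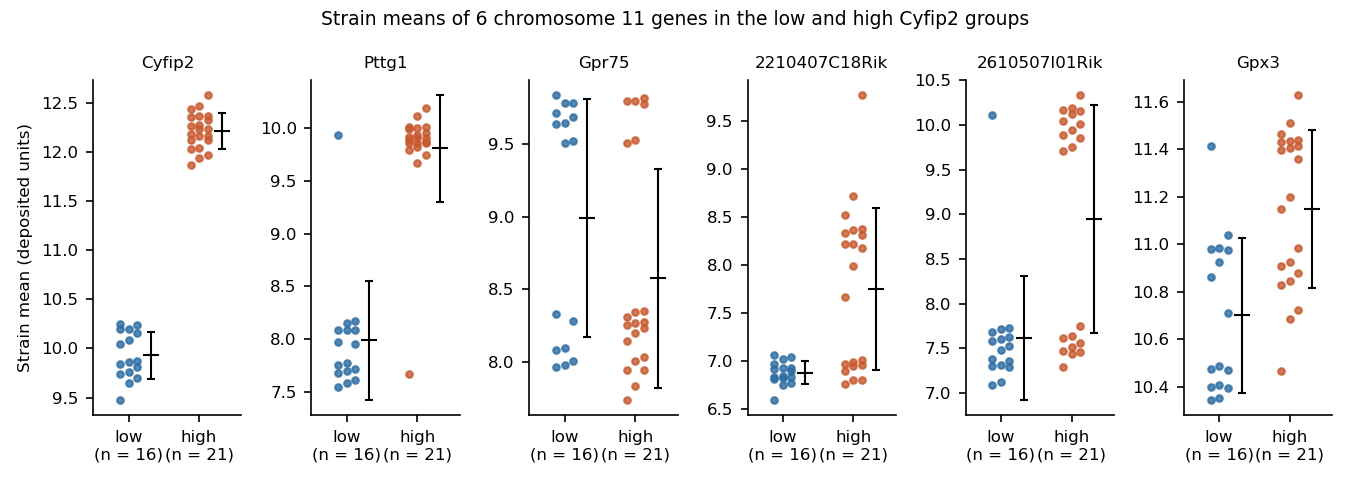
Strain means (points, deposited units) of 6 chromosome 11 genes in the low (blue, n = 16) and high (orange, n = 21) Cyfip2 groups, with mean and SD in black and a y axis of its own in each panel. The groups are apart for Cyfip2, apart except for 1 strain each for Pttg1, and mixed for Gpr75, while the high group divides in 2210407C18Rik and 2610507I01Rik.

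Other genes that fall into a pair of bands show how far the Cyfip2 grouping is its own. By a description chosen with values in view (an empty gap of at least 0.5 units in the strain means with at least 5 strains on each side), 57 genes besides Cyfip2 formed 2 bands, 7 of them on chromosome 11. For each, strains on the other side than their Cyfip2 group were counted, in whichever orientation gave fewer. Counted so, the number cannot exceed 18 of 37. Taking the orientation with fewer also puts unrelated groupings below 18, so genes on other chromosomes are given for comparison. Pttg1 had 2 such strains of 37, 2210407C18Rik 9 and 2610507I01Rik 10. Gpr75, a G protein-coupled receptor 75 genes before Cyfip2, had 13, and its values were higher in DBA/2J (9.57) than in C57BL/6J (7.96). Myl7, the atrial myosin light chain 198 genes before, had 17, and Xaf1, an interferon-induced regulator of apoptosis 453 genes after, had 18. The high strains below the gap of Myl7 (BXD44, BXD61, BXD65 and BXD71) were also those of Sln, an atrial marker on chromosome 9. Whether the bands of Myl7 follow the atrial share of the pools was not tested. The 50 genes not on chromosome 11 had 11 (Hfe, the haemochromatosis gene) to 18, with a median of 17. Gpr75 thus lay within their range, and 2210407C18Rik and 2610507I01Rik lay just below it.

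No measured protein partner of Cyfip2 passed the test. Of the WAVE complex 9 other subunits were measured, none was called, and their differences ran from -0.0607 (Abi2) to 0.0684 (Wasf1), with a median of -0.0133 beside -0.000374 over all genes. The scaffold subunit Nckap1, which binds CYFIP proteins directly, was 11.7 ± 0.0662 units in the low and 11.8 ± 0.0502 in the high group, a difference of -0.0248 (95% interval -0.0735 to 0.0240). Its blood cell form Nckap1l differed by 0.0662 (95% interval -0.0789 to 0.211). Cyfip1 was not analysed here. Among 6 measured subunits of the Arp2/3 complex the median difference was -0.00224, among 24 Rac and actin regulators -0.00674, and among 8 FMRP and cap-binding partners -0.0372, with none called in these lists.

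**Figure D5:**
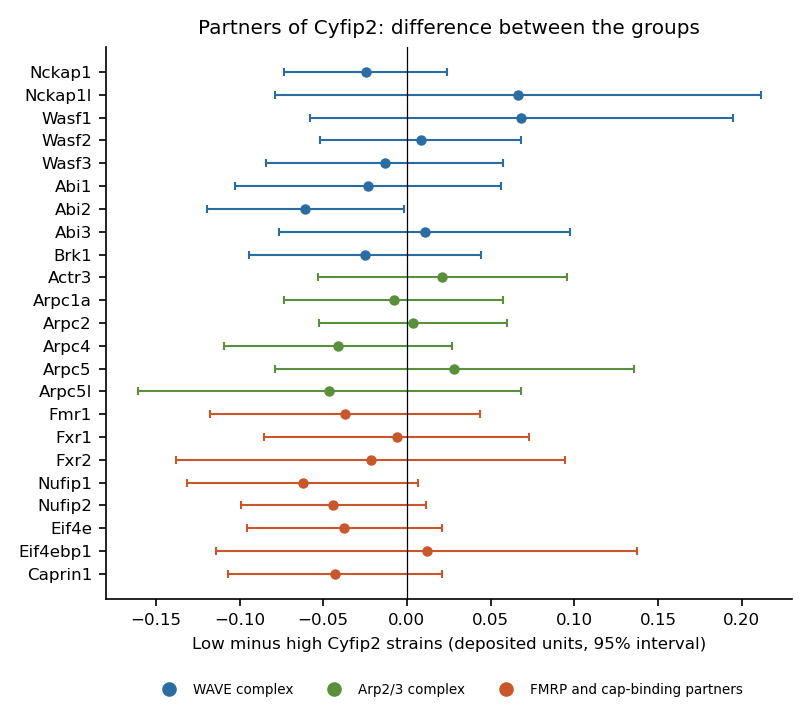
Difference between low and high Cyfip2 strains (x axis, deposited units) with its 95% interval for 23 measured genes of the WAVE complex (blue), the Arp2/3 complex (green) and the FMRP and cap-binding partners (orange). All intervals lie between -0.161 and 0.211, and 22 of 23 include 0.

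Nor did any partner of Pttg1. The list of securin, separase and cohesin genes has 12 measured members with Pttg1 as the 1 called, and the other 11 ran from -0.0429 (Pds5a) to 0.0441. The upper end is separase itself, Espl1, at 7.84 units in the low and 7.80 in the high group. None of 24 mitosis and proliferation genes was called (median 0.0381).

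Heart and cell type lists also held no called gene. Whole heart RNA cannot tell fewer cells of a type from less RNA per cell. Myh6, the cardiac alpha myosin heavy chain, stood at 15.3 to 15.8 units and Tnnt2, cardiac troponin T, at 15.4 to 16.3 on the 74 arrays, far above the array mean of 8. Medians of the differences were 0.0406 over 8 cardiomyocyte markers, 0.0115 over 16 sarcomere genes, -0.0501 over 12 genes of the dystrophin glycoprotein complex and -0.100 over 8 stress and fetal genes such as Nppa. They were -0.0624 over 8 atrial markers, -0.0703 over 8 fibroblast, -0.00709 over 8 endothelial, -0.0408 over 8 smooth muscle and pericyte, -0.00469 over 10 macrophage and -0.00822 over 8 T and B cell markers. Adipocyte (0.0428, 6 genes), mesothelial (-0.0134, 8), neuronal and Schwann cell (0.0106, 6), GABA-A receptor (-0.0253, 7), adrenergic receptor (-0.0101, 2) and TIM family and T cell genes (0.0148, 9) had medians in the same range. Erythroid markers were not analysed here.

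The median furthest from 0 belonged to the immunity GTPases, interferon-inducible proteins that act on vacuoles of intracellular microbes. It was 0.215 over 9 genes, with 0 called. Igtp, 159 genes after Cyfip2, was 10.3 units in the low and 9.85 in the high group, a difference of 0.473 (SE 0.252, limma adjusted p = 0.9999), and Gbp4 on chromosome 5 differed by 0.336 (SE 0.150, adjusted p = 0.9999). The 17 interferon response genes had a median of 0.102, also with 0 called. Mean levels of the GTPase list overlapped widely, 8.54 to 10.485 in the low and 8.42 to 9.56 in the high group. In all, 230 distinct genes of 25 lists were measured, 1 was called and 14 (6.09%) had an unadjusted p under 0.05, beside 4.52% of all genes.

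For some of the lists the member with the smallest p is given by its values, since none of these passed (limma adjusted p from 0.987 to 0.9999). Birc5, the mitotic regulator survivin, was 6.77 units in the low and 6.59 in the high group, a difference of 0.178 (SE 0.0562). Dtna, the dystrophin-binding protein alpha-dystrobrevin, differed by -0.0980 (SE 0.0358), and Elmo1, part of an exchange factor for Rac, by -0.124 (SE 0.0502). Among cell type markers, the differences were -0.172 for Lyve1, a hyaluronan receptor of resident macrophages, -0.0852 for Pdgfrb, the pericyte growth factor receptor, -0.105 for Ms4a1, the B cell antigen CD20, and 0.0817 for Myl2, the ventricular myosin light chain. Rtp4, an interferon-induced chaperone of receptors, differed by 0.193, and Acta1, the skeletal actin of the fetal heart program, by -0.338.

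On chromosomes other than 11 no gene passed in the strain means (0 of 20345), and the smallest adjusted p was 0.453, for Cdk20, a cyclin-dependent kinase (-0.158, SE 0.0386). The 888 genes there with an unadjusted p under 0.05 were divided into 464 lower and 424 higher in the low group, and 43.2% of them had the parents' difference in the same direction, compared with 68.0% of the 25 such genes near Cyfip2. For 99.3% of the genes on other chromosomes the 95% interval of the difference lay within 0.5 units on each side of 0. A difference of the size of Cyfip2's or Pttg1's was therefore outside the interval of nearly every distant gene, while small differences were not resolved. Mrap, an accessory protein of melanocortin receptors (-0.261, limma adjusted p = 0.471), and Wipf3, a WASP-interacting protein (-0.158, adjusted p = 0.555), are among the 10 distant genes with an unadjusted p under 0.001.

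Beside the named genes, 1 probe set with no gene name in the array's table differed between the groups when all 41344 probe sets other than that of Cyfip2 were tested. Probe set 17248790 was lower in the low group, with a difference of -0.836 units (limma adjusted p = 7.77e-10), and 2 of these probe sets (0.00484%) passed in all, the other being that of Pttg1.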

How the data were processed

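The authors deposited 1 score for each probe set, of unstated log base, made with Affymetrix Expression Console per the submitters' processing notes (version, summarisation and array build not given in the sources used here). Since all arrays share a mean of 8 and an SD of 2, a change common to most genes would not show. The shared protocol text names chow alone, and diet was taken from the samples' titles and treatment labels. Of 41345 probe sets 25335 are in the platform's gene table, 1814 of them with several symbols and not named, and 16010 are unnamed here. The probe set with the highest mean stood for each of 22180 genes, of which 21994 were placed in gene order by RefSeq (GRCm38.p6). The test was limma 3.58.1 (lmFit and eBayes, R 4.3.3) on strain means with Benjamini-Hochberg adjustment over all genes other than Cyfip2. Diet cancels in these means because each strain has 1 array per diet, and the pairing comes from the strain labels. In data simulated for the low against high comparison of 22179 genes, 57 of 100 genes shifted by 0.2 units and 100 of 100 shifted by 0.5 were called, with 10 of 21979 unshifted genes. Both sets of 100 were shifted in the same simulated data, and the adjusted threshold is stricter when fewer genes differ. The measured comparison called 1 gene, so the simulated share overstates the recovery of differences of 0.2 units there.

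Genes were named as follows: Cyfip2 and Pttg1, called genes by size of difference or adjusted p, the member with the smallest p in some of the lists, the smallest adjusted p in the diet by group comparison, and neighbours of Cyfip2 with known roles. Other genes that did not pass are named outside that rule, after their values were seen. The members, groups and lists were chosen with earlier results of these data known. The number of arrays limits the precision.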

Additional observations from a re-analysis of the deposited data

Results flagged for a closer look

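Probe set 17248790, which the array's gene table does not name and which no comparison of named genes used, was lower in low Cyfip2 strains by a difference of -0.836 units (SE 0.0703, 95% interval -0.978 to -0.693, limma adjusted p = 7.77e-10 over 41344 probe sets). It was taken up because a signal appeared outside the named genes. Its strain means were 7.26 ± 0.155 units in the low group (SD, n = 16; 6.96 in BXD87 to 7.55 in BXD80) and 8.09 ± 0.253 in the high group (n = 21; 7.55 in BXD63 to 8.55 in BXD100). The low strain was below the high strain in 99.7% of pairs, and BXD80 and BXD63 were the strains that overlapped. The strains that disagreed for Pttg1 followed their Cyfip2 group here, BXD66 at 7.36 and BXD55 at 8.07. Among strains outside the groups, BXD60 had 7.15, BXD79 7.03 and BXD92a 8.02 on chow. The parents differed in the groups' direction on chow, with 7.16 in DBA/2J and 8.06 in C57BL/6J, but in the opposite direction on high fat, with 7.76 in DBA/2J and 7.58 in C57BL/6J. On high fat DBA/2J lay above the highest low strain (7.69, BXD66). A gene for this probe set was not assigned. Its number falls between those of the probe sets of Fndc9 (17248786) and Fam71b (17248793), which are 1 and 2 measured genes after Cyfip2. The place of the probe set on the genome was not looked up.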

How the results depend on the processing

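Pttg1 stayed lower in low Cyfip2 strains and past the threshold under all alternatives run, at -1.91 to -1.73 units with all strains kept (highest adjusted p 5.51e-08) and -1.95 to -1.79 with each strain left out in turn (highest adjusted p 9.76e-09). The count of called genes moved from 1 to 10 with strain as a random block over the 74 arrays (replicate block), and to 2 with quantile normalization, with genes above the median level, with eBayes using trend and robust, and with all probe sets of the array, an alternative added after the values were seen. It ranged from 1 to 4 with single strains left out. Near Cyfip2 the count of 1 became 3 with the replicate block and 2 with quantile normalization, genes above the median level, or trend and robust, and ranged from 1 to 3 with strains left out. On other chromosomes it became 1 (Adamts5) with the replicate block and stayed 0 with each strain left out. The causes were not tested. Rufy1 was the added gene under quantile normalization, genes above the median level and trend and robust, and on leaving out BXD70, BXD85 or BXD97. Without BXD71 Cdkn2aipnl was added beside it, and without BXD101 Zfp672 too. The replicate block had a consensus correlation of 0.148, used for all genes, so it understates the error of genes whose arrays agree more closely within strains. The count for a diet effect that differs between the groups stayed 0 under the alternatives run, the replicate block included. No other boundary, diet or neighbourhood size changed a count by over 1.5 times. With gaps of at least 0.4 or 0.6 units, 86 or 43 genes formed 2 bands, 7 or 6 on chromosome 11.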
